A study of Mus musculus with 6 samples.

Results

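AMPA and kainate receptors are the glutamate-gated ion channels that carry fast excitatory signals between nerve cells. The part of the expression data described here is the set of genes for their pore-forming subunits, Gria1 to Gria4 for AMPA receptors and Grik1 to Grik5 for kainate receptors. All 9 genes were found by symbol in the deposited table, with 1 probe set each, among 20239 named genes. The family was chosen by a measured value, since Gria2 had shown the largest rise of all genes in mutant nerves, so the difference between mutant and control nerves belongs to the choice. It is given for the members as a description, with errors and without p-values.

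Total RNA of whole sciatic nerves from mice aged 25 days had been measured on Affymetrix whole-transcript arrays, 1 array per mouse. The 3 mutant mice had the genotype DhhCre::Sip1 flox/flox. In them a Cre recombinase driven by the Desert hedgehog promoter, which is active in the Schwann cell lineage, deletes Sip1, the gene now called Zeb2. Its product is a transcription factor with zinc fingers. The 3 control mice had the genotype Sip1 flox/flox, so both groups carried the floxed alleles and the mutants alone carried Cre, and an effect of Cre itself cannot be told apart from that of the deletion. Per the labels, the samples were biological replicates.

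Each receptor is a tetramer of subunits with a shared plan, a large extracellular part that binds glutamate and a pore formed by membrane segments and a re-entrant loop. The GluA2 protein, made from Gria2, is known for a pore residue that is changed by RNA editing and that makes AMPA receptors nearly impermeable to calcium. The kainate subunits GluK1 to GluK3 form channels by themselves, whereas GluK4 and GluK5, from Grik4 and Grik5, bind glutamate with higher affinity and need a partner among GluK1 to GluK3. Both receptor families are best known from neurons of the central nervous system, and glial cells express some of their subunits as well.

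Values were log2 array values, and the medians of the arrays ran from 7.995 to 8.08. With 3 arrays in a group, their number limits the precision. No detection calls were used. The mean values of 1098 olfactory receptor genes, which nerve is not known to use, ran from 4.16 at their 5th to 7.44 at their 95th percentile, and a value in that range cannot be told from background. The same range compresses fold changes that start from it. Values of different probe sets were not compared as amounts of RNA. Zeb2 itself was lower in the mutants by 0.88 on the log2 scale (log2 difference −0.88, SE 0.15, limma adjusted p = 0.0137). Leaving out mutant 1 gave −0.92, with an adjusted p of 0.0522.

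The nerves differed in the tissue they held. Over 19 markers of skeletal muscle the mean log2 value stood at 7.52, 12.39 and 9.65 for mutants 1 to 3, and at 7.46, 12.43 and 10.22 for controls 1 to 3. The mean of 11 adipocyte markers ran from 10.83 to 11.34 in the mutants and from 10.16 in control 3 to 12.30 in control 1. The 6 measured markers of Schwann cells, the glia of peripheral nerve, had a mean of 10.05, 9.70 and 10.13 for mutants 1 to 3, and of 10.39, 10.45 and 10.996 for controls 1 to 3, all above the olfactory receptor range. In such whole-tissue RNA, fewer cells of a type and less RNA per cell cannot be told apart.

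Of the 9 subunit genes, 5 were higher in mutant nerves at a limma Benjamini-Hochberg adjusted p under 0.05, namely Gria1, Gria2, Grik1, Grik2 and Grik3. Among all genes tested 5.74% were higher at that threshold and 3.89% lower. No subunit gene was lower at that threshold, and 0 were lower at an unadjusted p under 0.05. In 6 of the 9 all 3 mutant values lay above all 3 control values, as in 16.3% of all genes, and in none did they all lie below, as in 11.8% of all genes. The median log2 difference was 0.57 over the 9 genes and −0.02 over all genes. These counts describe a family picked with the differences known, and nothing is read from their distance to the background.

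**Figure D1:**
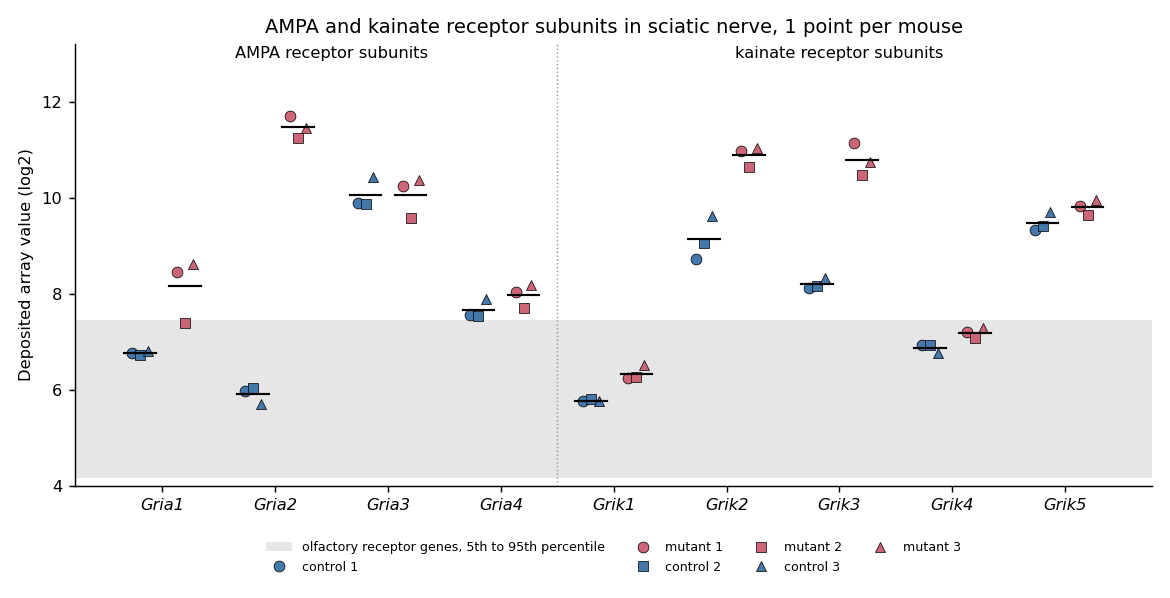
Deposited log2 array value (vertical axis) of the 9 subunit genes (horizontal axis) in each of 3 control and 3 mutant nerves, with 1 point per mouse, a marker shape per replicate number and a black line at each group mean. The grey band runs from the 5th to the 95th percentile of olfactory receptor genes, 4.16 to 7.44. Gria2 moves from inside the band in controls to between 11.25 and 11.70 in mutants, while Gria3 overlaps between the groups.

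Among the AMPA receptor subunits, Gria2 stood at 5.97, 6.04 and 5.71 in controls 1 to 3 and at 11.70, 11.25 and 11.44 in mutants 1 to 3. All controls lay in the range of the olfactory receptor genes, and the lowest mutant lay 5.21 above the highest control on the log2 scale. The log2 difference was 5.56 (SE 0.14, 95% confidence interval 5.22 to 5.90), or 47.1-fold with an interval of 37.2 to 59.7. Because the control level cannot be told from background, the fold between the transcript amounts may be larger than the fold between the array values. Between samples of the same replicate number the difference was 5.73, 5.21 and 5.74.

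Gria1 encodes GluA1, the subunit that joins GluA2 in many AMPA receptors of the forebrain. Its value was 6.76, 6.73 and 6.81 in controls 1 to 3 and 8.45, 7.39 and 8.61 in mutants 1 to 3. The controls lay within 0.08 of each other, all in the olfactory receptor range, so their level cannot be told from background. Mutant 2 stood far below the other mutants, at the upper edge of that range. The groups did not overlap, with a log2 difference of 1.38 (SE 0.30, 95% confidence interval 0.67 to 2.10), or 2.61-fold. Gria1 passed the threshold with all samples but not when any single sample other than mutant 2 was left out, and without mutant 2 the difference was 1.76.

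Gria3 encodes GluA3, which also pairs with GluA2. It stood at 9.88, 9.86 and 10.43 in controls 1 to 3 and at 10.24, 9.58 and 10.36 in mutants 1 to 3. Both groups were clearly above the olfactory receptor range and overlapped throughout. The group means were 10.06 ± 0.33 in controls and 10.06 ± 0.42 in mutants (mean ± SD, n = 3 each). The log2 difference of 0.00 had an interval from −0.57 to 0.58, so a change of up to 1.49-fold in either direction is within the error.

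Gria4, the gene of GluA4, was at 7.56, 7.53 and 7.89 in controls 1 to 3 and at 8.04, 7.69 and 8.17 in mutants 1 to 3. The groups overlapped, since mutant 2 lay below control 3. The log2 difference was 0.31 (SE 0.16, 95% confidence interval −0.06 to 0.68) and did not pass. The AMPA family thus held the member with the largest difference and the one with the smallest, with log2 differences of 5.56 and 0.00.

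Among the kainate receptor subunits that form channels by themselves, Grik3, which encodes GluK3, differed most. It stood at 8.13, 8.17 and 8.32 in controls 1 to 3 and at 11.13, 10.47 and 10.74 in mutants 1 to 3. The lowest mutant lay 2.15 above the highest control on the log2 scale. The log2 difference was 2.58 (SE 0.17, 95% confidence interval 2.18 to 2.98), or 5.97-fold, and the controls stood above the 95th percentile of the olfactory receptor genes. By size of the rise Grik3 was number 26 of the 20239 genes.

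Grik2, the gene of GluK2, stood at 8.72, 9.06 and 9.62 in controls 1 to 3 and at 10.97, 10.64 and 11.03 in mutants 1 to 3. The controls were spread more widely than the mutants, with an SD of 0.46 against 0.21, and control 3 was the highest of them. The groups did not overlap, with a gap of 1.02 between the lowest mutant and control 3. The log2 difference was 1.75 (SE 0.23, 95% confidence interval 1.195 to 2.30), or 3.35-fold, and without control 3 it was 1.99.

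Grik1, the gene of GluK1, was at 5.75, 5.80 and 5.75 in controls 1 to 3 and at 6.24, 6.26 and 6.51 in mutants 1 to 3. The groups did not overlap, yet all 6 values lay in the range of the olfactory receptor genes. The log2 difference was 0.57 (SE 0.098, 95% confidence interval 0.34 to 0.80). Grik1 passed the threshold with all samples but not without the muscle-rich mutant 2 and control 2, where the difference was 0.62.

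The subunits that need a partner had log2 differences of 0.31 and 0.33. Grik4, for GluK4, stood at 6.93, 6.94 and 6.76 in controls 1 to 3 and at 7.19, 7.08 and 7.29 in mutants 1 to 3. All of these values lay in the olfactory receptor range, and the lowest mutant was 0.14 above the highest control. Its log2 difference was 0.31 (SE 0.096, 95% confidence interval 0.08 to 0.54) and did not pass.

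Grik5, for GluK5, stood at 9.32, 9.41 and 9.69 in controls 1 to 3 and at 9.83, 9.63 and 9.96 in mutants 1 to 3. All values were above the olfactory receptor range, and the groups overlapped because mutant 2 was below control 3. The log2 difference was 0.33 (SE 0.13, 95% confidence interval 0.02 to 0.65) and did not pass. Both Grik4 and Grik5 passed when arrays were weighted by their quality, at 0.31 and 0.38, which brought the count of members higher to 7. They passed under no other alternative that was run.

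**Figure D2:**
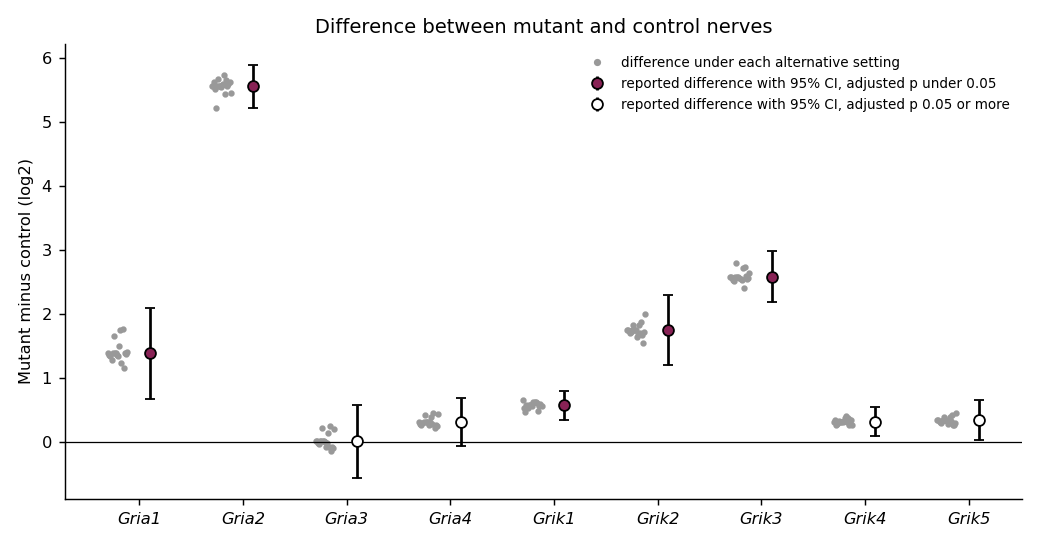
Mutant minus control difference on the log2 scale (vertical axis) for the 9 subunit genes (horizontal axis), as circles with 95% confidence intervals, filled where the adjusted p was under 0.05, beside grey dots for the alternative settings in which the gene was tested. The intervals of Gria2 and Grik3 start at 5.22 and 2.18, and the differences of Gria3 lie on both sides of 0.

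The spread among mutants followed a shared pattern. Mutant 2 was the lowest mutant in 8 of the 9 genes, Grik1 being the exception, and mutant 2 was the lowest mutant in 40.6% of all genes. Control 3 was the highest control in 6 of the 9, against 34.1% of all genes. Mutant 2 held the most muscle RNA and the lowest Schwann cell marker mean of the mutants, 9.70. Control 3 had the highest Schwann cell marker mean, 10.996, and the lowest adipocyte mean, 10.16.

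Control 2, whose muscle score was as high as that of mutant 2, was the lowest control in 3 of the 9 genes, against 38.9% of all genes. With the muscle score as a covariate the log2 difference was 5.55 for Gria2, 2.57 for Grik3 and 1.75 for Grik2. It was 1.36 for Gria1 and 0.57 for Grik1. Without both muscle-rich samples these differences were 5.73, 2.71, 1.83, 1.74 and 0.62 in that order, and Grik1 did not pass. The part of muscle, fat or Schwann cell content in the spread within groups was not tested.

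Neurons are the cells best known for these receptors, and nerve holds their axons. Of 16 neuronal markers 1 was higher and 1 lower in the mutants, with a mean log2 value of 7.23 to 7.32 in the mutants and 7.20 to 7.37 in the controls, and 9 of the 16 lay in the olfactory receptor range in every sample. Rbfox3, which marks neuronal nuclei, was between 6.74 and 6.89 in all 6 nerves. The neuronal marker that rose was Map2, a microtubule-associated protein, from 8.08 ± 0.14 to 9.998 ± 0.43 (mean ± SD, n = 3 each, limma adjusted p = 0.00262). The synaptic vesicle gene Syp fell by 0.82 on the log2 scale (limma adjusted p = 0.0133), but its adjusted p was 0.0672 on leaving out mutant 1 and 0.0699 without both muscle-rich samples.

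Other glia express these subunits too. Of 8 astrocyte markers 3 rose and none fell, 1 being lower at an unadjusted limma p under 0.05, with a mean log2 value of 9.09 to 9.37 in the mutants and 8.51 to 9.05 in the controls. These were the glutamate transporters Slc1a3 (log2 difference 2.37) and Slc1a2 (0.85) and the gap junction gene Gja1 (1.07), none of which is exclusive to astrocytes. Slc1a3 did not pass without both muscle-rich samples (limma adjusted p = 0.0547). Gjb6, another astrocyte connexin, lay between 5.87 and 6.34 in all samples. The highest astrocyte marker mean of each group was that of its muscle-rich sample, where Aqp4 stood at 9.23 in mutant 2 and 10.27 in control 2. In the other samples Aqp4 lay between 6.42 and 6.97. Of 8 markers of the oligodendrocyte lineage 1 rose and 1 fell, and 2 were lower at an unadjusted limma p under 0.05. The gene that rose, Pdgfra, is also counted among the fibroblast markers below. The mean level of the 8 markers was 7.63 to 7.78 among mutants and 7.73 to 7.82 among controls. The defining factor Olig2 lay between 6.54 and 6.71, in the olfactory receptor range.

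Some markers of the nerve sheath and stroma were also higher in the mutants. Of 8 perineurial markers 6 rose and none fell, and their mean level was 10.97 to 11.15 among mutants and 9.93 to 10.22 among controls. Of 8 fibroblast markers 4 rose and none fell, and in both lists 0 were lower at an unadjusted limma p under 0.05. The mean level of the fibroblast markers was 12.18 to 12.43 among mutants and 11.68 to 12.04 among controls. Of 6 Schwann cell markers 2 fell and none rose, 0 of them higher at an unadjusted limma p under 0.05. None of 6 macrophage markers passed, while 3 were higher at an unadjusted limma p under 0.05. Among 6 endothelial markers 1 fell and none rose, while 1 was higher and 2 were lower at an unadjusted limma p under 0.05. The part of these cells in the differences of the subunit genes was not tested.

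The genes with the profile closest to that of Gria2 over the 6 arrays were Gfap, Ptprz1, Agr3, Pld5 and Epyc. Likeness was the root mean square difference of profiles centred on their own means, a measure dominated by the difference between the groups. It was 0.52 for Gfap, the intermediate filament gene of astrocytes and immature Schwann cells, 0.60 for the receptor phosphatase gene Ptprz1, 0.62 for Agr3, 0.70 for Pld5 and 0.81 for the proteoglycan gene Epyc. Their log2 differences between mutant and control ran from 3.997 to 4.57. All were smaller than that of Gria2, as must hold for the gene with the largest rise of all. Pearson's r with Gria2 lay between 0.988 and 0.998, a description over 6 arrays that share the separation of the groups. Because no gene of the family fell, no profile was matched to a falling one.

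**Figure D3:**
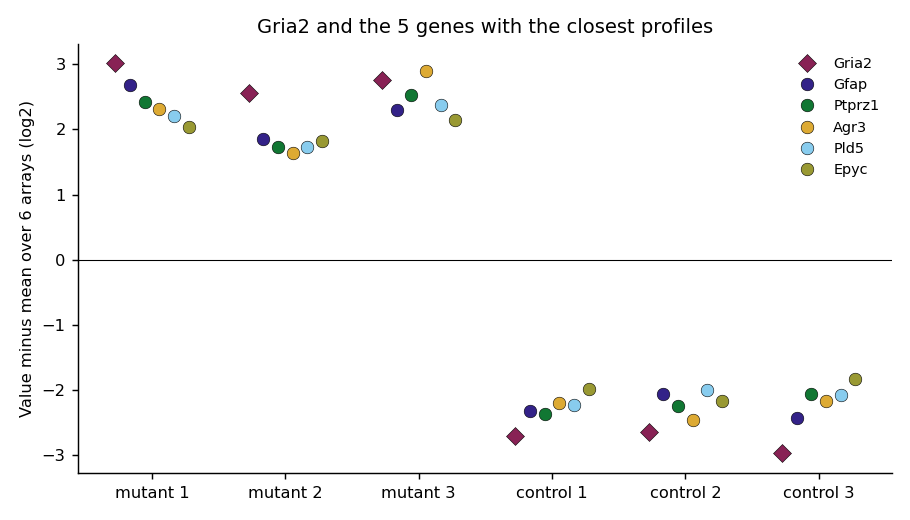
Log2 value minus the mean over the 6 arrays (vertical axis) for Gria2 (diamonds) and its 5 closest genes (circles) in each nerve (horizontal axis). All points of mutants lie above 0 and all points of controls below, with Gria2 the lowest in all controls and the highest in mutants 1 and 2.

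The starts of the subunit genes were searched for letters bound by ZEB factors, which recognise E-box sequences. RefSeq windows from 250 bases before to 50 after an annotated start on build GRCm38.p6 covered 6 of the 9 genes, all but Gria1, Gria3 and Grik1. The letters CACCTG, on either strand, were in 1 of these 6 windows and in 20.2% of 32851 windows of the same 300 bases genome-wide. The letters CACCTA were in 1 of the 6 and in 10.1% of all. The matches belonged to Grik3 and Grik2, and they are shown as the only matches found in the windows of the members. Capitals mark the match, read 5′ to 3′ on the gene's strand.
Grik3: cggcagccggggCAGGTGggaagcccgcgc
Grik2: ttccggaagcacTAGGTGgtcagtacccgg
The Grik3 stretch is chr4:125490496-125490525 on the plus strand, with the match starting 188 bases before the annotated start. The Grik2 stretch is chr10:49788950-49788979 on the minus strand, with the match 213 bases before the start. The window of Gria2 held neither set of letters, which says nothing about binding elsewhere. A match of letters is not a binding site.

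Receptors work with partners, and 57 related genes in 6 lists were measured. Of these, 6 rose (10.5%) and 2 fell (3.51%), against 5.74% and 3.89% of all genes, and their median log2 difference was 0.02. The counts of the lists are those of the fit with all samples. Without mutant 1, mutant 3, control 1 or control 2, 3 of the 57 rose. Without mutant 1 or mutant 3, none fell, while 4 and 3 were lower at an unadjusted limma p under 0.05. Without mutant 2, control 2 or control 3, 1 fell.

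AMPA auxiliary subunits bind the receptor and set its traffic and gating. Of 16 measured genes 1 rose and 1 fell, and the median was −0.01. Syndig1, which encodes a synaptic membrane protein that associates with AMPA receptors, stood at 7.11, 7.25 and 7.40 in controls 1 to 3 and at 8.21, 7.998 and 7.91 in mutants 1 to 3. The groups did not overlap, with all controls in the olfactory receptor range, and the log2 difference was 0.79 (SE 0.12, limma adjusted p = 0.00786). It did not pass without both muscle-rich samples, with an adjusted p of 0.0588.

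Cnih3, a cornichon protein that slows the closing of AMPA receptors, stood at 8.25, 8.51 and 8.76 in controls 1 to 3 and at 7.72, 7.70 and 7.22 in mutants 1 to 3. It fell, with all mutants below all controls and a log2 difference of −0.96 (SE 0.18, limma adjusted p = 0.0202). The call was lost on leaving out control 2 (adjusted p = 0.0625), control 3 (0.0518), mutant 1 (0.0523) or mutant 3 (0.059), and without both muscle-rich samples (0.0864). Stargazin, encoded by Cacng2 and the best known auxiliary subunit, lay between 5.66 and 5.89 in all nerves, in the olfactory receptor range.

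Of 4 measured kainate receptor partners none rose, 0 at an unadjusted limma p under 0.05, and 1 fell. The auxiliary subunit genes Neto1 and Neto2 had log2 differences of −0.03 and 0.28 and did not pass. The gene that fell was C1ql3, for a secreted C1q-like protein, with 10.36, 10.42 and 10.92 in controls 1 to 3 and 9.85, 9.61 and 9.67 in mutants 1 to 3. The groups did not overlap, and the log2 difference was −0.85 (SE 0.16, limma adjusted p = 0.021). The call was lost on leaving out mutant 1 (adjusted p = 0.0582), mutant 2 (0.0593) or mutant 3 (0.0931), or both muscle-rich samples (0.0872).

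The other glutamate receptor families were listed beside them. Of 7 measured NMDA and delta receptor genes 1 rose and none fell, 0 of them lower at an unadjusted limma p under 0.05. Grin2b, for the NMDA receptor subunit GluN2B, stood at 7.11, 6.82 and 7.26 in controls 1 to 3 and at 7.74, 7.63 and 7.93 in mutants 1 to 3. It rose by 0.70 on the log2 scale (SE 0.14, limma adjusted p = 0.0234), and the control values lay in the olfactory receptor range. The adjusted p was 0.0908 without mutant 1, 0.1 without mutant 3, 0.0539 without control 1 and 0.0531 without control 2, 0.0596 with sex as a covariate and 0.0518 without both muscle-rich samples. Of 7 metabotropic receptor genes, which signal through G proteins, none passed and 0 had an unadjusted limma p under 0.05. The smallest p was that of Grm4, at a log2 difference of 0.18 (limma adjusted p = 0.32).

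Among 15 scaffold and trafficking genes 1 rose and none fell, 1 of them being lower at an unadjusted limma p under 0.05. Dlg4, for the postsynaptic scaffold PSD-95, stood at 8.79, 8.70 and 8.83 in controls 1 to 3 and at 9.71, 9.10 and 9.69 in mutants 1 to 3. The groups did not overlap, and the log2 difference was 0.73 (SE 0.17, limma adjusted p = 0.0438). Of the 6 fits that left out 1 sample, it passed when mutant 2 was left out, at a log2 difference of 0.93. The adjusted p lay at 0.164 without mutant 1, 0.168 without mutant 3, 0.098 without control 1, 0.123 without control 2 and 0.0895 without control 3. It was 0.0644 with arrays centred on their medians, 0.0576 with the adipocyte score and 0.0775 with sex as a covariate. Grip1 and Pick1, for proteins that bind the tail of GluA2, had log2 differences of −0.02 and 0.44 and did not pass.

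Of 8 genes for RNA editing enzymes and the REST repressor complex, 3 rose and none fell, 0 of them lower at an unadjusted limma p under 0.05. Adarb1 encodes ADAR2, the enzyme that edits the pore codon of the Gria2 transcript. It stood at 9.24, 9.27 and 9.41 in controls 1 to 3 and at 9.98, 9.94 and 9.97 in mutants 1 to 3. It rose by 0.66 on the log2 scale (SE 0.082, limma adjusted p = 0.00428) and passed in all 19 alternatives. The arrays do not read the edited base, so the state of the GluA2 pore was not measured.

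Adarb2, for a related protein not known to edit by itself, stood at 5.82, 5.80 and 5.92 in controls 1 to 3 and at 6.92, 6.27 and 6.59 in mutants 1 to 3. It rose by 0.74 on the log2 scale (SE 0.16, limma adjusted p = 0.0336), with every value in the olfactory receptor range. The call was lost on leaving out mutant 1 (adjusted p = 0.0775), mutant 3 (0.123), control 1 (0.0866), control 2 (0.0975) or control 3 (0.0684), with arrays centred on their medians (0.0517) or with sex as a covariate (0.0800).

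Hdac2, a histone deacetylase found in the REST complex, stood at 9.80, 9.97 and 10.07 in controls 1 to 3 and at 10.64, 10.53 and 10.66 in mutants 1 to 3. It rose by 0.66 (SE 0.098, limma adjusted p = 0.00774) and passed in all 19 alternatives. Rest itself, a repressor of neuronal genes that is known to act on Gria2, was at 9.25, 9.38 and 9.54 in controls 1 to 3 and at 9.72, 9.37 and 9.64 in mutants 1 to 3. The groups overlapped, and the log2 difference of 0.19 did not pass (limma adjusted p = 0.458). Rest was chosen for mention after its values were seen.

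**Figure D4:**
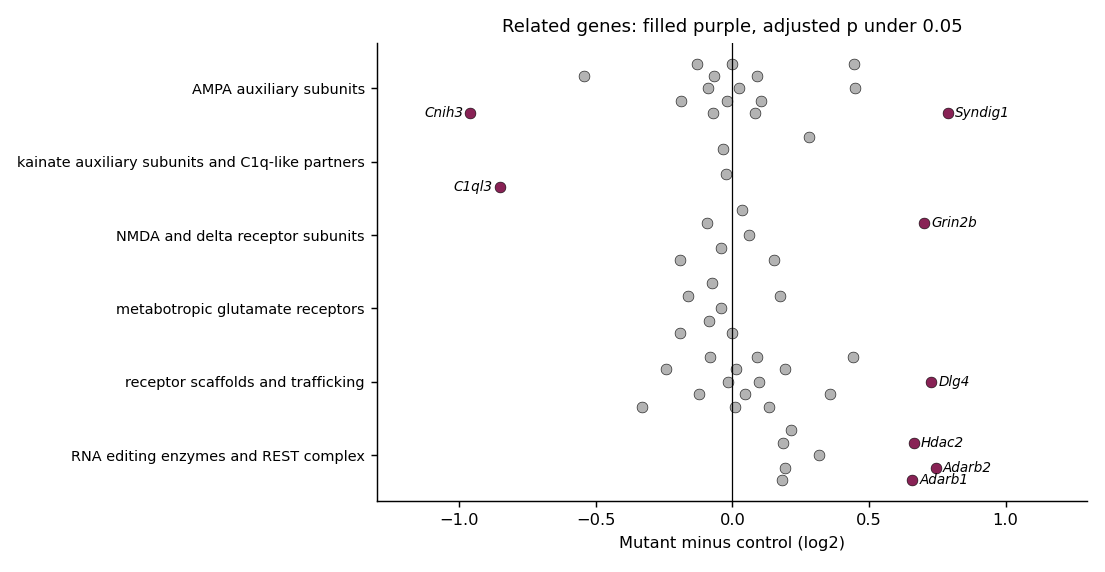
Mutant minus control difference on the log2 scale (horizontal axis) for 57 related genes in 6 lists (rows), with 1 point per gene, purple and named where the limma adjusted p was under 0.05 and grey elsewhere. The named points are 6 above 0 and 2 below, all between −0.96 and 0.79. The vertical spread within a row only separates the points.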

How the data were processed

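Biotin-labelled total RNA had been hybridised to 1-colour Affymetrix arrays, per the labels' protocols. The authors deposited 1 table of log2 values for 21225 probe sets. The log base was read from the values, while the background correction, normalization and summarisation were not given in the sources used here. The submitters' processing notes name limma. Symbols came from the platform annotation, updated through Entrez numbers to RefSeq GRCm38.p6, which named 20239 probe sets, and 986 unnamed ones were tested in an alternative.

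All named genes entered 1 fit in limma (version 3.58.1, R 4.3.3; lmFit, eBayes, two-sided), mutant minus control, with Benjamini-Hochberg adjustment over all genes. Values are mean ± SD, and SE is moderated. On simulated data for the comparison of mutant and control, over 20239 genes, a log2 change of 1 was recovered in 75.3% of the genes given it, and a change of 0.5 in 27.3%. The simulation raised only a small share of the genes and used independent normal noise. In the data 9.62% of genes passed, and the adjustment depends on the share of changed genes, so recovery there may differ. Figures used matplotlib 3.10.9.

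The members, lists and alternatives were chosen with earlier results of these data known. Named were all members, Zeb2, in each related list up to 4 genes that passed with the largest change or the gene with the smallest p, and the 5 genes most like Gria2. Marker genes, Rest, Cacng2, Neto1, Neto2, Grip1 and Pick1 were named outside that rule, after their values were seen. Listed genes with no named probe set were not analysed here.

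The labels give both groups replicate numbers 1 to 3. Deviations from group means correlated between same-numbered samples at 0.36, 0.574 and 0.295, so an alternative fit had the number as a block. Mutant 1 and control 3 correlated at 0.303, and muscle content followed the number. The alternatives also changed filters, scaling, offset, prior and weights, added muscle, adipocyte or sex covariates, or left out samples. Xist and Y-linked genes gave the sex, which was not balanced between the groups. Mutants 1 and 2 and control 3 were male, and mutant 3 and controls 1 and 2 were female.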

Additional observations from a re-analysis of the deposited data

How the results depend on the processing

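Over 19 alternatives the log2 difference ran from 5.22 to 5.73 for Gria2, 2.40 to 2.80 for Grik3, 1.54 to 1.99 for Grik2, 1.15 to 1.76 for Gria1 and 0.46 to 0.65 for Grik1. It passed in every alternative for Gria2, Grik2 and Grik3, in 13 of 18 for Gria1 and in 16 of 17 for Grik1, which filters on low values left out of the remaining alternatives. The lowest values of Gria2 and Grik1, 5.22 and 0.46, came with 16 added to the linear values. Gria3 ran from −0.15 to 0.24. Leaving out each sample in turn gave 4 to 5 members higher and none lower, with 0 lower at an unadjusted limma p under 0.05, and without the lowest 50% of genes 3 were higher of the 5 then tested. The filters on low values used the mean over all 6 arrays, so Gria2 stayed in through its mutant values alone. Its calls under these filters are therefore no separate evidence. The same holds for the other calls of members, since every alternative refits the arrays by which the family was chosen.

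Among related genes, 3 to 8 rose and 0 to 2 fell when each sample was left out. Array weights gave 10 and 4, and sex as a covariate gave 3 rises. Removal of the lowest 50% of genes gave 1 fall, that of C1ql3, because Cnih3 was then not tested. Removal of both muscle-rich samples gave 0 falls, with 5 lower at an unadjusted limma p under 0.05. Over all genes 1161 rose and 787 fell. Leaving out each sample gave 502 to 1397 rises and 392 to 744 falls, array weights 2411 and 1244, the adipocyte covariate 1189 falls and removal of both muscle-rich samples 453 falls. The fit with a replicate block gave 5 members higher, 1205 rises and 842 falls over all genes, and no member's call changed. The causes of the other shifts were not tested. Values in the olfactory receptor range limit what Grik1 and Grik4 can show. The control values of Gria1 and Gria2 lay in that range too, which limits what their fold changes can show.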
